A study of Arabidopsis thaliana with 24 samples.

Results

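The genes described here encode 3 subunits of the photosystems and 1 protein of their light-harvesting antenna. They are LHB1B2 (AT2G34420), PSBY (AT1G67740), PSBW (AT2G30570) and PSAN (AT5G64040) of Arabidopsis thaliana. A gene was included where a probe of the array was annotated with it and with no other gene, and each of the 4 genes had 1 such probe. They are 4 of the 691 genes so named, by 692 of the 3439 probes.

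Total RNA of the sut2 mutant and of wild type was measured, both in the Wassilevskija ecotype, in 12 columns of intensities each, numbered 1 to 12 in either group. The labels describe the mutant as without SUT2, which they call a sensor or transporter of sucrose in the plasma membrane, and the comparison asks how transcript levels differ in its absence. None of the probes was annotated with SUT2, so its loss could not be checked in these values. The sources used here give no tissue, age, growth conditions or kind of mutation, and do not say whether columns stand for separate plants. None of the marker symbols looked for, for green tissue, root, flower or seed, was found among the probes annotated with 1 gene. The 870 probes annotated with several genes were not searched. LHB1B2, itself an antenna gene, carries another symbol than the green tissue markers looked for and was not counted. The tissue was therefore not checked.

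Photosystem II and photosystem I are pigment-protein complexes of the thylakoid membrane that act in series to move electrons from water to ferredoxin. Antenna proteins that bind chlorophyll surround both and pass light energy to them. Their subunits are divided between the chloroplast genome, which holds most of the reaction-centre genes, and the nucleus, which holds the antenna genes and many small subunits, including the 4 genes described here. Nuclear photosynthesis genes are known for high transcript levels in green tissue, for induction by light and for repression by sugar.

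The deposited values are taken as linear intensities; they appear scaled per column, with column means between 0.959 and 1.05; no label describes the scaling. The median intensity of a column was 0.256 ± 0.020 in the mutant and 0.372 ± 0.032 in wild type (SD, n = 12 columns each). The mean of a column was 0.985 ± 0.014 in the mutant and 1.01 ± 0.023 in wild type. The mutant columns thus had a lower centre at a similar mean, and which of these is held equal bears on every change given below. Columns with consecutive numbers (1 and 2, 3 and 4, and so on) resembled each other closely, and each such couple is called a set, 6 sets per group. Comparisons by set or by number below set mutant columns against wild type columns of the same number. No label states such a pairing, and whether the numbers pair the columns was not settled. Tests over 24 columns treat every column as a separate sample; they measure only the spread between columns, which may be technical. Since columns of a set resembled each other, the 12 columns of a group may not count as independent samples. The p-values of these tests may therefore be too small. The brightness of a probe also depends on the probe itself, so intensities are compared between columns for the same probe and not between genes.

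All 4 probes gave signal far above the centre of every column, with 0 of 24 columns listed at 0 for any of them. After quantile normalization no difference between mutant and wild type passed the test for any of the 4. LHB1B2 had 13.2 ± 4.3 in the mutant and 14.4 ± 4.8 in wild type (intensity, SD, n = 12 columns each), and PSAN had 2.55 ± 1.17 in the mutant and 2.53 ± 0.80 in wild type. PSBY had 2.30 ± 0.49 in the mutant and 2.13 ± 0.56 in wild type. PSBW had 48.6 ± 5.4 in the mutant and 41.2 ± 4.3 in wild type, the one gene of the 4 whose deposited means lay apart by more than either SD.

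**Figure D1:**
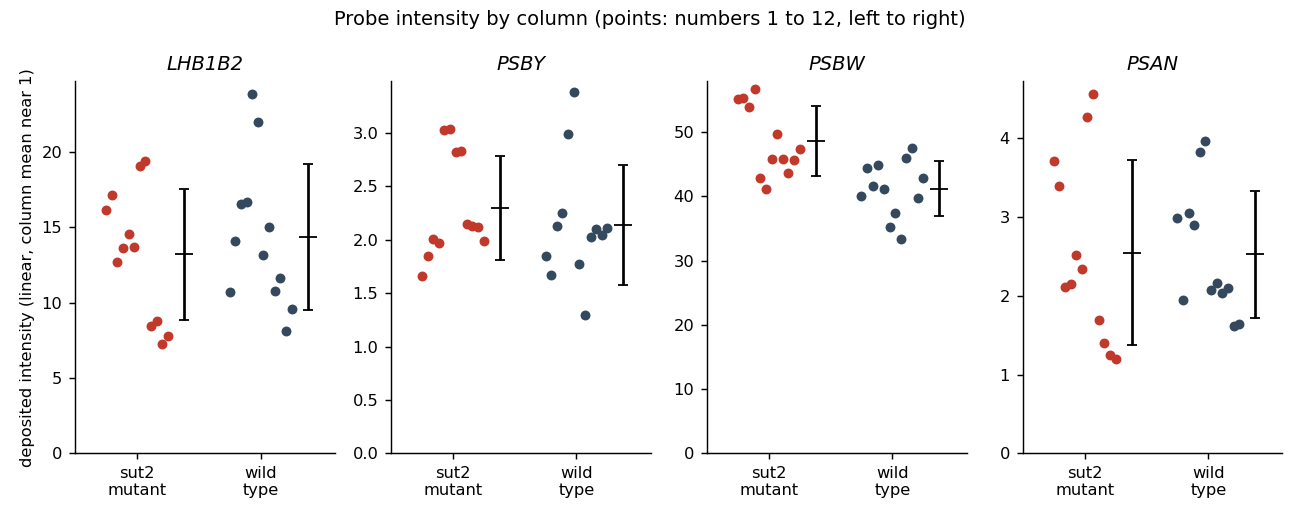
Deposited intensity (linear) of the 4 probes in each column, sut2 mutant left and wild type right in each panel. Points are columns 1 to 12 from left to right and bars are mean ± SD (n = 12 columns). The groups overlap in every panel, and 5 mutant columns of PSBW lie above its highest wild type column.

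PSBW encodes the W protein of photosystem II, a small membrane-spanning subunit that is needed for stable assembly of the complex with its antenna into supercomplexes. Its intensity ranged from 41.2 to 56.8 in the mutant, with a median of 46.6, and from 33.4 to 47.5 in wild type, with a median of 41.4. The mutant columns reached higher: 5 of 12 lay above the highest wild type column, and 6 of 12 wild type columns lay below the lowest mutant column. The coefficient of variation was 11.1% in the mutant and 10.4% in wild type. By set, the mutant was 1.10 to 1.35-fold higher in 5 sets and 0.956-fold in the set of numbers 9 and 10.

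The change of PSBW depended on the scaling between columns. After quantile normalization, which gives all columns the same distribution, its log2 change (mutant minus wild type) was 0.09 ± 0.10 (SE, limma adjusted p = 0.54 over all probes), and the 95% interval ran from 0.918 to 1.23-fold. Between 5 and 7 probes were brighter than PSBW in a mutant column and between 4 and 8 in a wild type column, so quantile normalization assigned it the value of 1 of a few top ranks. Without normalization PSBW rose by 0.24 ± 0.09 in log2 (limma adjusted p = 0.040), and with columns centred on their medians by 0.78 ± 0.10 (limma adjusted p = 2.57e-06). As higher in the mutant these settings called 5.03% and 30.6% of all probes. With consecutive numbers averaged the call without normalization was lost (limma adjusted p = 0.31) and that with median centring was kept (limma adjusted p = 0.0091, where 15.8% of all probes passed as higher).

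PSBY encodes a precursor that is processed into a pair of small polypeptides of photosystem II, which lie near cytochrome b559. Its intensity ranged from 1.66 to 3.04 in the mutant, with a median of 2.13, and from 1.29 to 3.38 in wild type, with a median of 2.07. Both the lowest and the highest value were wild type columns, and the groups overlapped widely. In 5 of the 6 sets the mutant lay between 0.909 and 1.04-fold of wild type. The set of numbers 7 and 8 stood apart, with mean intensities of 2.82 in the mutant and 1.53 in wild type, 1.84-fold.

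The log2 change of PSBY after quantile normalization was 0.15 ± 0.15 (SE, limma adjusted p = 0.49), with a 95% interval from 0.886 to 1.38-fold. Without numbers 7 and 8 it was -0.025 (limma adjusted p = 0.92). With median centring, where 30.6% of all probes passed as higher, PSBY rose by 0.66 ± 0.17 (limma adjusted p = 0.0029), a call that was lost with consecutive numbers averaged (limma adjusted p = 0.066).

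LHB1B2, also known as LHCB1.5, encodes a chlorophyll a/b-binding protein of the major trimeric antenna of photosystem II. It belongs to a family of near-identical genes and lies next to its relative LHB1B1 in the gene table, so its probe could read several of them and its values are uncertain in that respect. Its intensity ranged from 7.26 to 19.4 in the mutant, with a median of 13.7, and from 8.15 to 23.9 in wild type, with a median of 13.6. The coefficient of variation was 32.8% in the mutant and 33.6% in wild type. The medians were nearly the same, and 2 mutant columns lay below and 2 wild type columns above the range of the other group.

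By set, LHB1B2 was 1.34 and 1.36-fold higher in the mutant in numbers 1 and 2 and in numbers 7 and 8, and 0.615 to 0.848-fold in the other 4 sets. Its log2 change after quantile normalization was -0.27 ± 0.18 (SE, limma adjusted p = 0.25), with a 95% interval from 0.642 to 1.07-fold. Where the median deviation of each run of 48 probe numbers was also subtracted, LHB1B2 fell by 0.49 in log2 (limma adjusted p = 0.026, where 16.2% of all probes passed as lower), and this call was lost with consecutive numbers averaged (limma adjusted p = 0.19). With median centring the sign was turned, at 0.41 (limma adjusted p = 0.14).

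PSAN encodes the N subunit of photosystem I, a nuclear-encoded protein on the lumenal side of the complex that is required for efficient electron transfer from plastocyanin. Its intensity ranged from 1.20 to 4.56 in the mutant, with a median of 2.25, and from 1.61 to 3.97 in wild type, with a median of 2.13. The mutant range enclosed the wild type range, with 2 mutant columns above it and 3 below it. The coefficient of variation was 45.9% in the mutant and 31.8% in wild type; whether these differ was not tested.

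By set, PSAN was 1.44 and 2.08-fold higher in the mutant in numbers 1 and 2 and in numbers 7 and 8, and 0.623 to 0.751-fold in the other 4 sets. Its log2 change after quantile normalization was -0.08 ± 0.24 (SE, limma adjusted p = 0.83). The 95% interval, from 0.673 to 1.34-fold, was the widest of the 4 genes on the log2 scale. With median centring the change was 0.48 (limma adjusted p = 0.14).

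In the quantile-normalized fit 0 of the 4 genes passed the threshold of 0.05 on the adjusted p, against 34.8% of all 3439 probes (limma). The median log2 change of the 4 was 0.0049, against 0.10 for all probes. At an unadjusted p of 0.05 the count was also 0 of 4, against 44.3% of all probes. With the replicate number as a block, where 42.9% of all probes passed, it was 0 of 4 on the adjusted p and 1 of 4 unadjusted, against 51.2% of all probes, namely LHB1B2 (unadjusted p = 0.048, limma adjusted p = 0.094). With consecutive numbers averaged, where 13.1% of all probes passed, the 95% intervals widened to 0.562 to 1.23-fold for LHB1B2, 0.787 to 1.55-fold for PSBY, 0.838 to 1.34-fold for PSBW and 0.573 to 1.57-fold for PSAN. Each of these intervals included no change as well as rises and falls, and the fit did not decide between them. In bulk RNA, fewer cells of a type and less transcript per cell cannot be told apart.

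**Figure D2:**
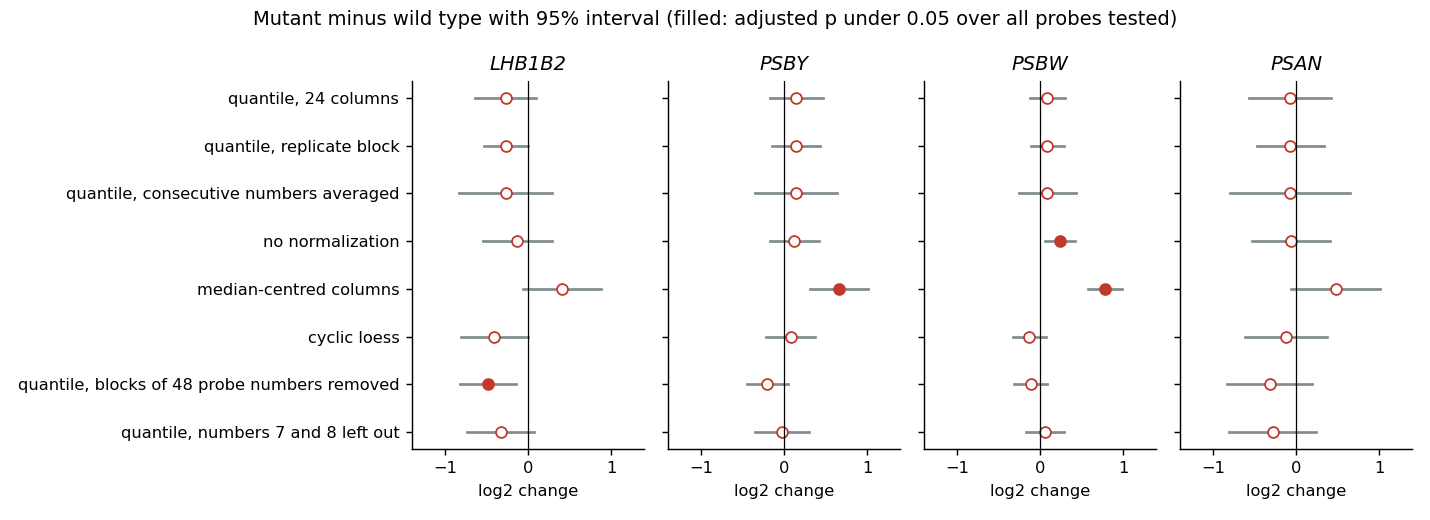
Log2 change (mutant minus wild type, x axis) of each gene under 8 settings, as points with 95% intervals from limma. Filled points had an adjusted p under 0.05 over all probes tested. The filled points are PSBW without normalization, PSBW and PSBY with median-centred columns, and LHB1B2 with blocks of 48 probe numbers removed.

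The size of the changes, and for LHB1B2, PSBW and PSAN also the sign, moved with the scaling of the columns, while PSBY was positive under the 4 scalings tried. Quantile normalization put the median log2 change of all probes at 0.10, median centring put it at 0.31, and the deposited scale had it at -0.24. Against that median the change of PSBW was 0.47 on the deposited and on the median-centred scale, and -0.016 on the quantile scale. PSBY stood 0.36 above it on the deposited and median-centred scales and 0.044 above it on the quantile scale. For LHB1B2 the same distance was 0.11 on the first 2 scales and -0.37 on the quantile scale, and for PSAN it was 0.17 and -0.18. Median centring shifts all probes of a column alike, so the deposited and median-centred scales give the same distance by arithmetic. With cyclic loess LHB1B2, PSBW and PSAN had log2 changes of -0.41 to -0.13, and PSBY had 0.08.

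The spread of LHB1B2, PSBY and PSAN lay mostly between sets of consecutive numbers, less within them. For PSAN the SD of log2 deposited intensity within sets was 0.10 in the mutant and 0.18 in wild type, while the SD between set means was 0.70 in the mutant and 0.44 in wild type. For LHB1B2 it was 0.06 in the mutant and 0.15 in wild type within sets, and 0.53 in the mutant and 0.48 in wild type between sets. For PSBY it was 0.05 in the mutant and 0.15 in wild type within sets, and 0.31 in the mutant and 0.36 in wild type between sets. PSBW varied little either way, with 0.05 in the mutant and 0.10 in wild type within sets, and 0.16 in the mutant and 0.14 in wild type between sets.

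**Figure D3:**
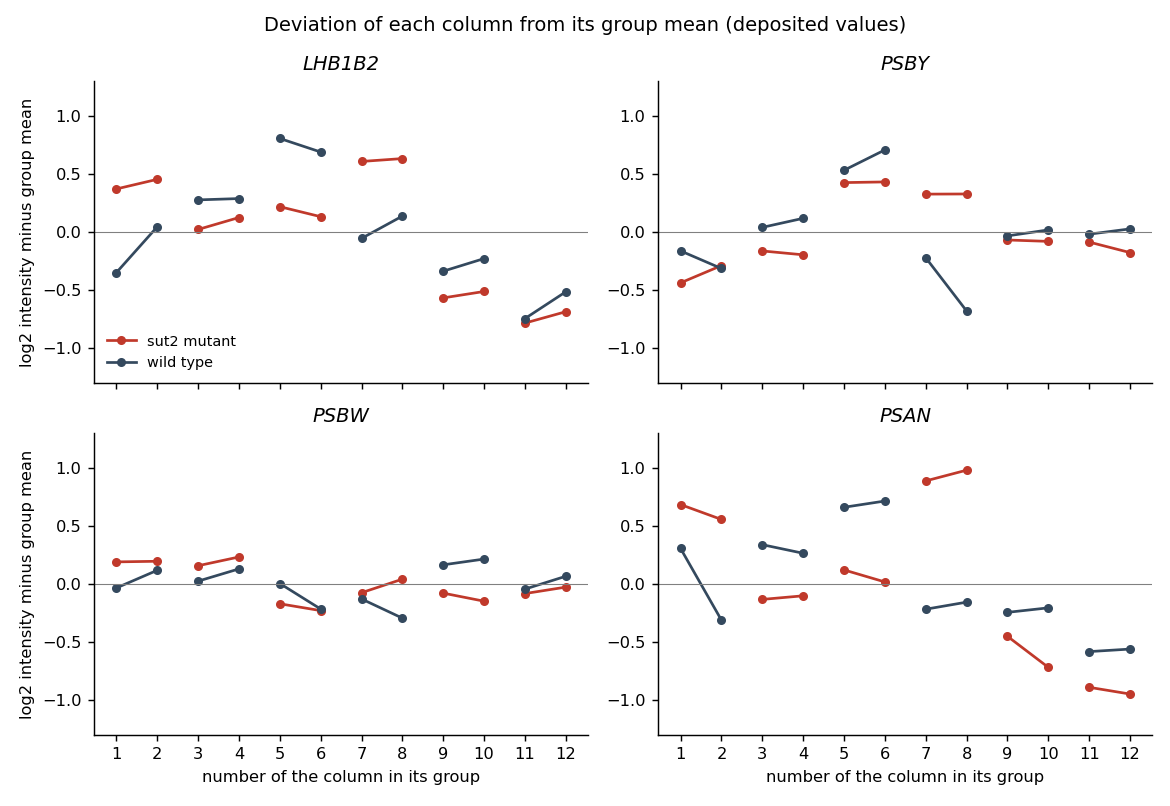
Log2 deposited intensity of each column minus its group mean (y axis) by column number (x axis), sut2 mutant in red and wild type in dark blue. Lines join consecutive numbers. LHB1B2 and PSAN are lowest in numbers 11 and 12 of both groups, and the mutant stands above wild type for PSBY in numbers 7 and 8.

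LHB1B2 and PSAN reached their highest and lowest levels in the same sets. Both were lowest in numbers 11 and 12, where LHB1B2 had set means of 7.51 in the mutant and 8.86 in wild type, and PSAN of 1.22 in the mutant and 1.63 in wild type. Both were highest in numbers 7 and 8 of the mutant, with 19.2 for LHB1B2 and 4.42 for PSAN, and in numbers 5 and 6 of wild type, with 23.0 for LHB1B2 and 3.90 for PSAN. With sets of the same numbers compared, the difference between the groups had the same sign for both genes in 6 of 6 sets. Single columns did not all follow: wild type number 1 had 10.7 for LHB1B2 and 2.99 for PSAN, while wild type number 2 had 14.1 and 1.95. PSBY was also highest in numbers 5 and 6, with set means of 3.03 in the mutant and 3.19 in wild type. PSBW showed no such range, and its lowest set was numbers 5 and 6 in the mutant, at 42.1, and numbers 7 and 8 in wild type, at 35.4.

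The ratio of 2 genes within a column is the same whatever constant factor scaled the column, though quantile normalization changes it. In deposited values the log2 ratio of PSAN over LHB1B2 had a mean of -2.44 ± 0.22 in the mutant and -2.50 ± 0.26 in wild type (SD, n = 12 columns each), a difference of 0.06, or 0.19 on the quantile scale. Its spread within groups (pooled SD 0.24) was below that of PSAN alone (0.57) and of LHB1B2 alone (0.49). For the other 5 pairs the pooled SD lay between 0.40 and 0.57, and the difference between groups between -0.37 and -0.12. On the quantile scale the difference lay between -0.41 and 0.06 for these 5, and the sign of PSBY over PSBW was turned. The largest in deposited values was that of LHB1B2 over PSBW, with a mean of -1.95 ± 0.48 in the mutant and -1.58 ± 0.53 in wild type, lower in the mutant in 10 of 12 numbers and in 4 of 6 sets. LHB1B2 over PSBY differed by -0.25 in deposited values and by -0.41 on the quantile scale, and was lower in the mutant in 10 of 12 numbers and in 5 of 6 sets. The 6 differences were not tested.

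**Figure D4:**
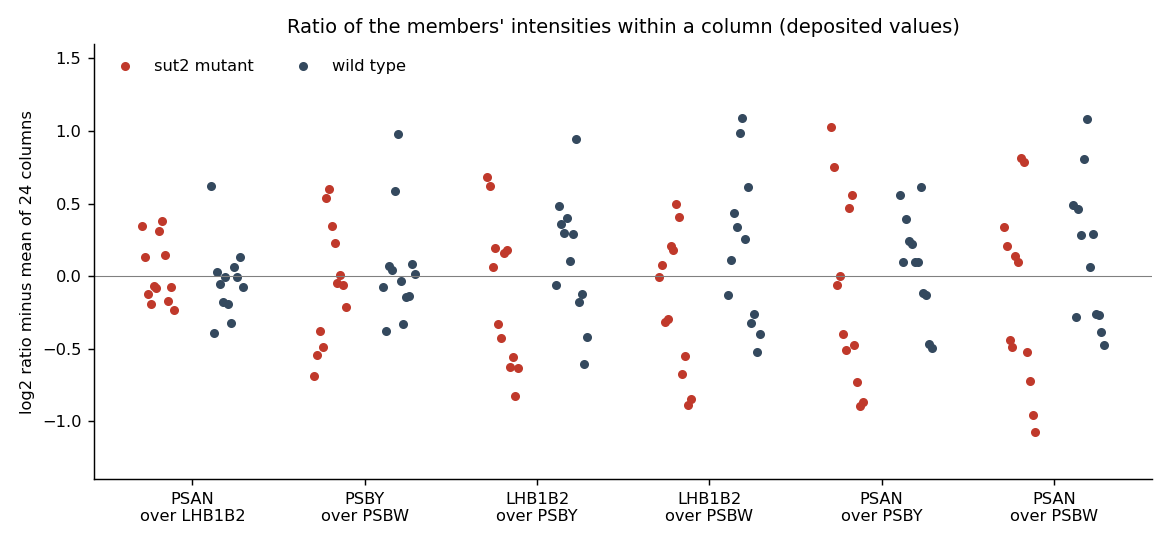
Log2 ratio of deposited intensities within a column, minus the mean over 24 columns (y axis), for the 6 pairs of genes; sut2 mutant in red, left, and wild type in dark blue, right. Points are columns. PSAN over LHB1B2 has the narrowest spread, with a pooled SD of 0.24.

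Set beside all probes, PSBW was among the less variable. Its SD of log2 deposited intensity within groups was 0.16, and 0.26% of the 3439 probes had a lower one; on the quantile scale the SD was 0.20 and 1.02% of probes had a lower one. The SD was 0.33 for PSBY (13.3% of probes lower), 0.49 for LHB1B2 (37.2%) and 0.57 for PSAN (46.7%), against a median of 0.61 over all probes. Dim probes varied more than bright ones. Among the 258 probes whose mean intensity was at least that of the dimmest of the 4, the median SD was 0.36, and 1.94% of probes had a lower SD than PSBW (5.04% on the quantile scale), 41.9% than PSBY, 75.6% than LHB1B2 and 86.0% than PSAN. Among these 258 probes PSBW therefore varied little, PSBY about as much as most, and LHB1B2 and PSAN more than most. At most 8 probes of a column were brighter than PSBW, so most of the 258 were dimmer than it. PSBW was not compared with probes of its own brightness alone.

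**Figure D5:**
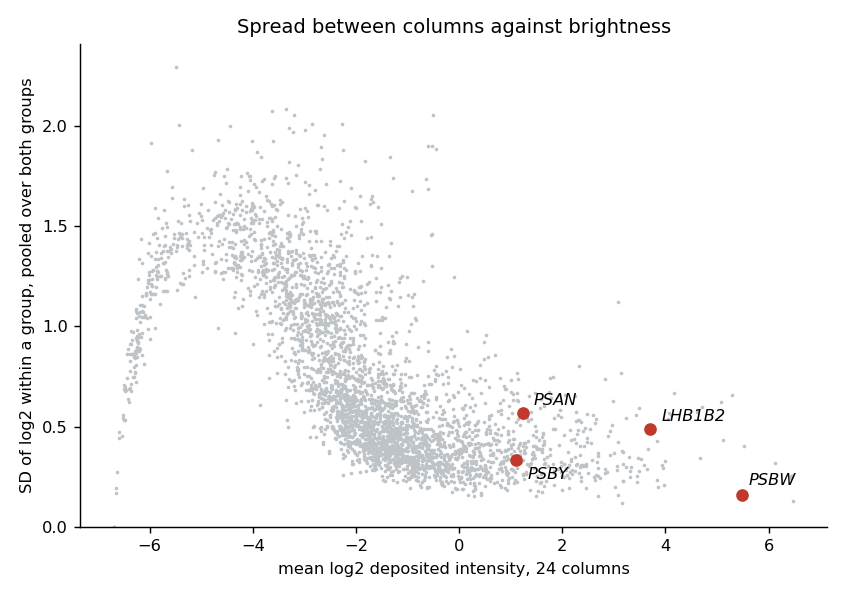
SD of log2 deposited intensity within a group, pooled over mutant and wild type (y axis), against mean log2 intensity over 24 columns (x axis). Grey points are all 3439 probes and red points the 4 genes. PSBW, at an SD of 0.16, lies at the lower edge. PSAN and LHB1B2 lie above most of the 258 probes at least as bright as the dimmest of the 4.

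The genes whose pattern was most like each of the 4 were taken as the 3 named genes with the smallest SD, over 24 columns, of the quantile-normalized log2 difference. For LHB1B2 these were AT4G31470 (SD 0.20), CUTA, a plastid protein related to bacterial copper tolerance proteins (0.26), and AT1G21660 (0.30), against a median of 0.85 over 691 genes. PSAN followed LHB1B2 as number 4. For PSAN the first 3 were AT4G31470 (0.30), LHB1B2 (0.31) and AT1G21660 (0.34). In deposited values PSAN stood at place 2 and CUTA at place 4 for LHB1B2. There LHB1B2 stood at place 1 for PSAN (SD 0.24). For PSBY they were AT5G42680 (0.28), AT2G30320 (0.29) and AT3G09080 (0.30), while PSBW, LHB1B2 and PSAN came at places 43, 97 and 107. In deposited values AT2G30320 stood at place 30, and PSBW, LHB1B2 and PSAN at places 26, 61 and 101. For PSBW they were AT3G50350 (0.20), AT4G27390 (0.22) and AT4G31530 (0.23), of which AT4G27390 stood at place 16 in deposited values. AT3G50350 was listed at 0 in 24 of 24 columns, so its likeness to PSBW is that of a value with little room to vary. AT4G31530 lay at the ceiling of the scale in 10 columns, with means of 97.2 in the mutant and 82.8 in wild type. It stood at place 1 in deposited values, and how far the ceiling bears on its likeness to PSBW was not tested.

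Other genes of the light reactions were hardly covered by named probes. Of the light-reaction list 5 genes were measured, the 4 above and PSB27, and PSB27 alone passed, as lower, which 15.9% of all probes did. PSB27, a lumenal protein that binds photosystem II during assembly and repair, had 0.963 ± 0.454 in the mutant and 1.86 ± 0.60 in wild type (intensity, SD, n = 12 columns each). It fell by 0.86 ± 0.29 in log2 (limma adjusted p = 0.024). The call was kept without normalization (limma adjusted p = 0.0057). It was lost with median centring (-0.52, limma adjusted p = 0.16) and when consecutive numbers were averaged (limma adjusted p = 0.13). Of 4 measured genes for assembly of photosystems and cytochromes 2 rose and 2 fell, against 18.8% of all probes that rose and 15.9% that fell. Besides PSB27, the cytochrome c biogenesis protein AT1G49380 fell by 1.35 ± 0.31 (limma adjusted p = 0.0018). LPA19, which is needed for maturation of the D1 protein of photosystem II, rose by 0.52 ± 0.11 (limma adjusted p = 0.00094), and AT1G22700, a photosystem I assembly protein, rose by 0.68 ± 0.18 (limma adjusted p = 0.0054). Both rises were lost without normalization (limma adjusted p = 0.82 and 0.40) and with consecutive numbers averaged (0.056 and 0.071). They were kept with median centring (limma adjusted p = 0.00031 and 0.0036) and with the replicate block (0.0014 and 0.0087). With averaging and no block, AT1G49380 alone of the 4 still passed (limma adjusted p = 0.032). With averaging and the replicate block, AT1G49380 (limma adjusted p = 0.014) and LPA19 (0.044) passed, while PSB27 and AT1G22700 did not. Of the Calvin cycle list 2 genes were measured and neither passed; phosphoribulokinase (PRK) had a log2 change of -0.26 and sedoheptulose-bisphosphatase (SBPASE) of 0.04. Without normalization both passed as lower, PRK at -0.62 (limma adjusted p = 0.00096) and SBPASE at -0.46 (limma adjusted p = 0.026). In that setting 1189 of 3439 probes passed, only 173 of them as higher, and the median change of all probes was -0.24. With median centring neither passed, PRK at -0.08 (limma adjusted p = 0.60) and SBPASE at 0.08 (limma adjusted p = 0.73).

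The numbers 1 to 6 and 7 to 12 were also compared. Whether the columns themselves divide at that point is not shown here. For LHB1B2 the log2 change was -0.26 in the later numbers, against -0.27 in the earlier ones, and for PSBW it was 0.14 in the later numbers, against 0.04 in the earlier ones. The sign differed for PSBY, at 0.40 in the later numbers against -0.11 in the earlier ones, and for PSAN, at 0.12 in the later numbers against -0.28 in the earlier ones. The difference itself passed for none of the 4 (limma interaction term, adjusted p from 0.38 for PSBY to 0.99 for LHB1B2), where 5 of 3439 probes passed, 0.145%. At an unadjusted p of 0.05 it also passed for none of the 4, against 17.4% of all probes.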

How the data were processed

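The data were 24 columns of array intensities for 3439 probes, 12 of the mutant and 12 of wild type, grouped by the titles in the labels. The deposited intensity values appear linear and scaled per column, as judged from the values; image analysis, background correction, dye and array of each column are not given in sources used here. Tested on the file, 146 to 273 values of a column were 0 and up to 4 lay at a ceiling of 100. Values below the 1st percentile of positive values (0.00971) were raised to that floor before taking log2 and quantile-normalizing the columns. Differences, mutant minus wild type, were tested with limma 3.58.1 in R 4.3.3 (lmFit, eBayes, two-sided), with Benjamini-Hochberg adjustment over all probes and a threshold of 0.05. Steps were tested on simulated data with independent columns. These data held no sets of consecutive numbers, so they do not show how such sets bear on the p-values. Names were taken from GEO's platform annotation, which may be outdated, and updated through the TAIR10.1 gene table (690 of 692 matched). The probes come with no genome build, so positions are left out.

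The 4 genes and the gene lists were chosen with earlier results of these data known. Named genes were the 4, the measured members of the pathway lists, and the 3 genes most like each of the 4. Deviations from the group means of same-numbered columns correlated by 0.14 to 0.40 in all 12 pairs. Columns of unlike numbers were not compared in this way, and no label states a pairing. Whether the numbers pair the columns was therefore not settled. Alternatives were other scalings, floors and filters, the replicate block, averaged consecutive numbers, divisions of the numbers, array weights and single columns left out. Chosen after seeing the data were removal of probe order, of blocks of 48 probe numbers and of numbers 7 and 8. Averaging of consecutive numbers without normalization, with median centring or with these blocks removed was also chosen then.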

Additional observations from a re-analysis of the deposited data

How the results depend on the processing

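Of the 4 genes, LHB1B2, PSBY, PSBW and PSAN, none passed in the quantile-normalized fit to 24 columns, and none passed with the replicate block, where the log2 changes were the same values, -0.27, 0.15, 0.09 and -0.08. Median centring turned LHB1B2 (0.41) and PSAN (0.48) and brought PSBY (0.66) and PSBW (0.78) past the threshold; averaging consecutive numbers under that centring left the values as they were, with PSBW alone past it. PSBW passed without normalization (0.24) and was turned with cyclic loess (-0.13). Removing blocks of 48 probe numbers brought LHB1B2 past the threshold (-0.49) and turned PSBY (-0.20) and PSBW (-0.12), and none of the 3 passed with consecutive numbers also averaged. PSBY was turned in numbers 1 to 6 alone (-0.11) and without numbers 7 and 8 (-0.025), and PSAN in numbers 7 to 12 alone (0.12). Leaving out 1 column at a time gave log2 changes from -0.16 to 0.0095 for PSAN, from -0.32 to -0.20 for LHB1B2, from 0.08 to 0.22 for PSBY and from 0.05 to 0.14 for PSBW, with none past the threshold. The cause of these shifts was not tested.

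The count of all probes past the threshold was 1196 in the main setting. It was 449 with consecutive numbers averaged, 759 with these averages and the replicate block, 619 with consecutive numbers as a random block, 663 in numbers 1 to 6 alone, 706 with averages without normalization and 406 with averages and blocks of 48 probe numbers removed. The SD of PSBW in wild type was 0.25 after quantile normalization and 0.15 in deposited values. No measure of background was used, so depth of signal was judged from the place of a probe in its column alone.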
